A study of Rattus norvegicus and Mus musculus with 18 samples.

Results

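Fabp4, Fabp5, Pparg, Cebpa, Adipoq, Lpl, Plin1, Plin2, Plin4 and Cd36 are genes of adipocytes and of fatty-acid binding, uptake and storage. These 10 genes were looked up by symbol among the 49548 gene rows of the mouse table, and each matched 1 Ensembl row. RNA was measured by SMART-seq2, which copies polyadenylated RNA into full-length cDNA, in whole tissue of healing skin wounds of adult mice. The groups were 3 libraries of mouse wound dermis and 3 of mouse wound epidermis, both collected 1 day after the scab had come off, and no genetic change or drug treatment is named for either. The labels give no strain, sex or number of animals, and p-values therefore reflect only how these libraries spread, which may be technical. The 12 rat libraries of the series were not analysed here.

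Fatty acids reach a tissue in triglyceride-carrying lipoproteins. Lipoprotein lipase (Lpl) frees them at the vessel wall, the receptor Cd36 helps them into cells, fatty-acid binding proteins carry them through the cytosol, and perilipins coat the droplets in which they are stored as triglyceride. In adipocytes the transcription factors PPAR-gamma (Pparg) and C/EBP-alpha (Cebpa) switch on these genes and each other, and mature fat cells secrete adiponectin (Adipoq). Several of the genes are not particular to fat: Fabp4 and Cd36 are also known from capillary endothelium and macrophages, and Fabp5 is the epidermal member of its family. Mouse skin carries a layer of white fat below the dermis, and new fat cells are known to form in large healing mouse wounds.

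Fabp4 and Fabp5 are close relatives, so stretches of their coding sequences are shown to let a reader judge whether short reads could be mistaken between them. Both genes lie on chromosome 3 of mm10 in a cluster of fatty-acid binding protein genes, Fabp5 from 10012548 to 10016607 on the plus strand and Fabp4 from 10204088 to 10208576 on the minus strand. The coding sequences, read from the GENCODE transcripts, were 399 bases long for Fabp4 and 408 for Fabp5, and 60.9% of the 399 aligned bases were identical. The windows below run from coding base 75 to 146 of Fabp4 and from 81 to 152 of Fabp5, both 5′ to 3′ on the coding strand. Capitals mark the longest stretch that both coding sequences share exactly.
Fabp4: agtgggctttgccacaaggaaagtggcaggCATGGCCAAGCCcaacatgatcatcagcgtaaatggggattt
Fabp5: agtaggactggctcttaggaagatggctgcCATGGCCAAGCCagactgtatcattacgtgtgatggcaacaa
That stretch was 12 bases long, and the longest exact match anywhere in the transcripts of both genes was 16 bases, against the shorter read length of 43 bases given in the labels. Fabp5 was closer to Fabp5l2, a processed pseudogene, with 94.1% identical bases and an exact shared stretch of 68 bases. Fabp5l2 was listed at 0 to 1.63 TPM, and reads of these copies cannot be told apart with certainty.

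The values are TPM, a gene's share of the transcripts in a library, corrected for transcript length and scaled to the same total in every library. Markers bore out the labelled tissues. The summed TPM of 10 keratinocyte markers was 52822 to 90768 in epidermis and 529 to 16597 in dermis. The sum of 8 fibroblast markers was 44771 to 70152 in dermis and 30.4 to 135 in epidermis. Wound dermis replicate 2 stood apart, where the keratinocyte markers had a median level of 24.0% relative to epidermis, compared with 1.79% in replicate 1 and 0.656% in replicate 3. Replicate 1 was not free of keratinocyte RNA. The basal markers Krt14 and Krt5 stood there at 17.2% and 15.0% of their epidermis mean, against 26.4% and 45.2% in replicate 2 and 1.86% and 3.43% in replicate 3. The sequencing depth behind each library is unknown, and in whole tissue fewer cells of a type and less RNA per cell cannot be told apart. Values were compared as log2(TPM + 1) with limma across the 15982 genes that reached 1 TPM in at least 3 libraries, with p-values adjusted by the Benjamini-Hochberg method and called at 0.05. This fit called 17.0% of these genes higher in epidermis and 39.3% lower, and their median log2 fold change was -0.42. Higher genes were 30.2% of those called, but 47.2% when libraries were scaled by median of ratios and 52.8% when quantile normalized, with medians of -0.03 and 0.08.

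Transcripts that define mature fat cells were at or near 0 in both tissues. Adipoq, on chromosome 16 from 23146536 to 23158028, was listed at 0 in all 3 dermis libraries and at 0.12, 0 and 0.06 TPM in epidermis replicates 1 to 3. Plin1, the main droplet coat of white adipocytes, on chromosome 7 from 79720218 to 79732903, stood at 0.52, 0.35 and 0.41 TPM in dermis and at 0.49, 0.33 and 0.29 TPM in epidermis, so that the groups overlapped. Plin4, a perilipin of small new droplets in fat cells, on chromosome 17 from 56100591 to 56109803, did not exceed 0.02 TPM in any library. All 3 genes lay below the level needed for testing, and with every listed gene tested none was called (adjusted p = 0.30 for Adipoq, 0.70 for Plin1 and 0.70 for Plin4 in limma).

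Most other genes of mature adipocytes were low too. Of 17 such genes, Adipoq and Plin1 included, 7 stayed below 1 TPM in every library and 6 were tested. The hormone gene Lep and the droplet gene Cidec were listed at 0 in all 6 libraries, and Cfd, which encodes adipsin, and Pck1, a gene of glyceride glycerol synthesis in fat, were listed at 0 in the dermis and reached at most 0.16 and 0.03 TPM in epidermis. For comparison, 0 of 30 widely used genes, such as Actb, Gapdh and Tbp, was listed at 0 in any library. The lowest value among them was 2.48 TPM, so they do not show whether scarce transcripts would have been detected. The genes of this list above 10 TPM in any library were ones that other cells are also known to use: Fabp4 and Lpl, described below, and Lipe, the hormone-sensitive lipase, at 21.5, 25.3 and 17.3 TPM in epidermis against 3.64, 8.93 and 5.59 TPM in dermis. Since the transcripts that define adipocytes were at or near 0, the genes are called by their names and not taken as a sign of that cell type.

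**Figure D1:**
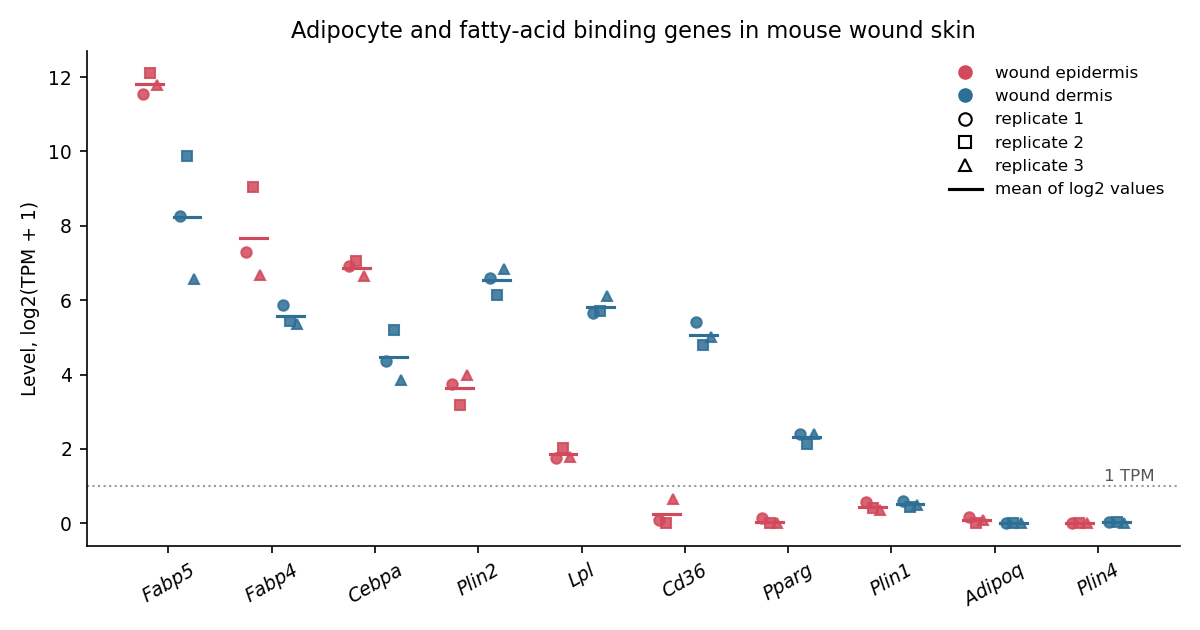
Levels of the 10 genes in each mouse library, as log2(TPM + 1), ordered by their highest level; points are libraries, their shape gives the replicate, and short bars are means of the log2 values of 3 libraries. Fabp5, Fabp4 and Cebpa lie higher in epidermis, Plin2, Lpl, Cd36 and Pparg lie higher in dermis, and Plin1, Adipoq and Plin4 stay below 1 TPM in all 6 libraries.

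Of the fatty-acid binding proteins, Fabp5 was the most abundant by far. Its TPM in epidermis replicates 1 to 3 was 2994, 4399 and 3549, and in dermis replicates 1 to 3 it was 305, 940 and 94.6. Every epidermis library lay above every dermis library, as in 20.8% of all genes tested. Fabp5 averaged 3648 ± 708 TPM in epidermis against 446 ± 440 TPM in dermis (SD, 3 libraries each), and its log2 fold change was 3.58 ± 0.75 (SE, 95% interval 1.82 to 5.34, limma adjusted p = 0.0057). Dermis replicate 2, which held the most Fabp5 of the dermis libraries, also held the most keratinocyte marker RNA. Fabp5 stood there at 25.8% of its epidermis mean, against 8.35% in replicate 1 and 2.59% in replicate 3, so the order over the dermis libraries was the same as for the marker median. Without dermis replicate 2 the log2 fold change was 4.40, and without dermis replicate 3 it was 2.75. The part of keratinocyte RNA in the dermis values of Fabp5 was not tested.

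Fabp4, the adipocyte member of the family, was also higher in epidermis. It stood at 155, 528 and 102 TPM in epidermis replicates 1 to 3 and at 58.0, 42.6 and 40.3 TPM in the dermis. The groups did not overlap, and epidermis replicate 2 was more than 3 times as high as either of the others. Fabp4 averaged 262 ± 232 TPM in epidermis against 47.0 ± 9.66 TPM in dermis (SD, 3 libraries each), and its log2 fold change was 2.11 ± 0.57 (SE, 95% interval 0.77 to 3.45, limma adjusted p = 0.016). This call was lost without dermis replicate 3, with a limma adjusted p of 0.057 and a log2 fold change of 2.01. Without epidermis replicate 2 the call held (limma adjusted p = 0.0084), but the log2 fold change fell to 1.42. Unlike Fabp5 and Cebpa, Fabp4 was not highest in dermis replicate 2, where it reached 16.3% of its epidermis level, between the 22.2% of replicate 1 and the 15.4% of replicate 3.

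Markers of other cells known for Fabp4 were lower in epidermis. In epidermis the sum of 11 endothelial markers was 7.35 to 11.8 TPM, against 511 to 684 TPM in dermis. All 11 were called lower in epidermis, against 39.3% of all genes tested. Of these, 7 had passed the filter on low values through the dermis alone and could only be called lower. Cdh5, the cadherin of endothelial junctions, did not exceed 0.11 TPM in epidermis, and Cldn5, a tight junction protein of vessels, did not exceed 0.27 TPM. Pecam1 stood at 2.83, 9.48 and 1.96 TPM in epidermis replicates 1 to 3, highest in replicate 2 as Fabp4 was. Egfl7 stood at 1.79, 0.29 and 4.44 TPM there, lowest in replicate 2. The sum of 11 macrophage markers was 69.0 to 80.4 TPM in epidermis and 1438 to 2669 TPM in dermis. All 11 were called lower in epidermis, again against 39.3% of all genes tested, and 4 had passed the filter through the dermis alone. Under quantile normalization 10 were called lower, where 4191 of all 15982 genes were. Cd68 supplied 44.4, 68.5 and 52.9 TPM of the epidermis sums, while the macrophage gene Adgre1 did not exceed 0.47 TPM there. Adipoq and Plin1, as given above, did not exceed 0.49 TPM in epidermis. Which cells held the Fabp4 of the epidermis libraries was not tested.

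The rest of the family was low. Of 9 fatty-acid binding protein genes only Fabp4 and Fabp5 reached the level needed for testing. Fabp3, the heart form, stayed at or below 1.89 TPM, Fabp7, the brain form, reached 4.78 TPM in dermis replicate 3 and at most 0.74 TPM elsewhere, and Fabp12 reached 1.92 TPM in epidermis and 0.50 TPM in dermis. Fabp1, the liver form, was listed at 0 in all 6 libraries. Fabp9 and Fabp12, which lie with Fabp4 and Fabp5 within 288.6 kb of chromosome 3, as does Pmp2, the myelin form, did not share their neighbours' levels: Fabp9 reached 0.36 TPM and Pmp2 0.80 TPM. Fabp5 made up 89.3% to 97.1% of the summed TPM of the family in epidermis. In dermis its share was 83.6%, 95.4% and 66.8% in replicates 1 to 3, and that of Fabp4 was 15.9%, 4.32% and 28.4%.

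**Figure D2:**
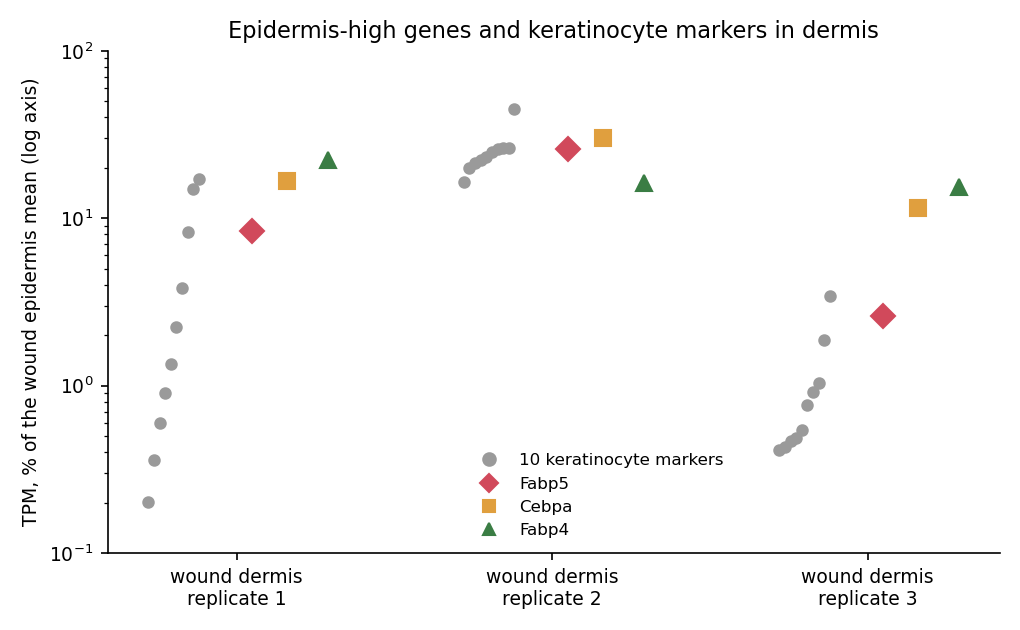
Level of Fabp5, Cebpa and Fabp4 and of 10 keratinocyte markers in each wound dermis library, as a percent of the mean TPM of the 3 wound epidermis libraries, on a log axis. The markers and Fabp5 are highest in dermis replicate 2, at a marker median of 24.0% and 25.8% for Fabp5, while Fabp4 stays between 15.4% and 22.2% in all 3 libraries.

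The transcription factors Cebpa and Pparg, which act together in fat cells, differed in opposite directions. Cebpa, on chromosome 7 from 35119293 to 35121928, stood at 119, 132 and 99.0 TPM in epidermis replicates 1 to 3 and at 19.6, 35.4 and 13.4 TPM in dermis. All epidermis libraries lay above all dermis libraries, and the log2 fold change was 2.41 ± 0.35 (SE, 95% interval 1.59 to 3.22, limma adjusted p = 0.0012). Beside its role in fat, C/EBP-alpha is known to take part in the differentiation of mouse keratinocytes. Dermis replicate 2, with the most keratinocyte marker RNA, held Cebpa at 30.3% of its epidermis level, above the 16.8% of replicate 1 and the 11.4% of replicate 3, and without that library the log2 fold change was 2.77.

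Pparg, on chromosome 6 from 115360951 to 115490399, stood at 4.33, 3.38 and 4.30 TPM in the dermis. In epidermis it was listed at 0.10 TPM in replicate 1 and at 0 in replicates 2 and 3. It was lower in epidermis, as 45.3% of all genes tested were without overlap, with a log2 fold change of -2.27 ± 0.17 (SE, 95% interval -2.68 to -1.86, limma adjusted p = 6.2e-05). Values this close to the added 1 TPM understate the change, and with 0.1 TPM added the log2 fold change was -5.02. Pparg passed the filter on low values through the dermis alone, so that it could only be tested as lower in epidermis.

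Of 16 adipogenic transcription factors and cofactors 14 were tested, of which 5 were called higher in epidermis and 8 lower, with a median log2 fold change of -1.27 against -0.42 over all genes. Over all genes tested 17.0% were called higher and 39.3% lower. Of the 8 lower genes 5 had passed the filter through the dermis alone and could not have been called higher, so neither the count nor the median shows a direction of this list. Under quantile normalization 6 were called higher and 7 lower, with a median of -0.47 against 0.08 over all genes. That scaling called 4694 of the 15982 genes higher and 4191 lower. The higher genes beside Cebpa were Cebpb, an early factor of fat cell formation, at a log2 fold change of 2.34, the zinc finger factor Klf5 at 2.99, Ppard, the PPAR form abundant in mouse keratinocytes, at 1.15, and Rxra, the partner of the PPARs, at 1.04 (adjusted p = 0.00042, 0.0062, 0.0094 and 0.0058 in limma). Ppard stood at 5.52, 11.4 and 7.46 TPM in epidermis and at 2.70, 3.33 and 2.87 TPM in dermis, so the PPAR form that was higher in epidermis was Ppard and the form higher in dermis was Pparg. The lower genes included factors of committed fat precursors: Ebf1 at -6.23, Zfp423 at -3.57 and Ebf2 at -2.62, with Nr1h3, the liver X receptor alpha, at -2.97. These 4, with Pparg, are the genes that passed through the dermis alone. Ebf1 was the most abundant of these, with 165, 137 and 99.8 TPM in dermis and 0.59 to 0.88 TPM in epidermis. The remaining lower genes were Cebpd, of the same family as Cebpb, at -1.97 (limma adjusted p = 0.0051), Prdm16 at -1.68 and Klf15 at -0.86. Srebf1, which drives fatty acid synthesis, was not called, at 0.34 (95% interval -0.24 to 0.92, limma adjusted p = 0.27), but was called higher with median-of-ratios scaling (0.78, adjusted p = 0.024) and with quantile normalization (0.81, adjusted p = 0.024).

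Lpl and Cd36, which release fatty acids from lipoproteins and take them up, were higher in dermis. Lpl, on chromosome 8 from 68880491 to 68907448, stood at 49.1, 51.6 and 68.4 TPM in dermis and at 2.41, 3.07 and 2.45 TPM in epidermis. The groups were far apart and narrow, with 21.3 times as much in dermis as in epidermis by the ratio of mean TPM. The log2 fold change was -3.97 ± 0.21 (SE, 95% interval -4.47 to -3.47, limma adjusted p = 1.7e-05). Gpihbp1, the endothelial protein that holds lipoprotein lipase at the vessel wall, stood at 51.3, 48.1 and 37.2 TPM in dermis and at 0.18 to 2.31 TPM in epidermis (log2 fold change -4.66), and Angptl4, an inhibitor of the enzyme, at 24.8, 15.7 and 33.9 TPM against 0.04 to 0.90 TPM (-4.15). Lmf1, which matures the enzyme, was lower in epidermis too (-1.71).

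Cd36, on chromosome 5 from 17781690 to 17888801, stood at 41.4, 26.7 and 31.2 TPM in dermis and at 0.07, 0 and 0.57 TPM in epidermis. It gave the lowest log2 fold change of the 7 tested genes, at -4.82 ± 0.27 (SE, 95% interval -5.45 to -4.19, limma adjusted p = 1.9e-05), and with 0.1 TPM added it stood at -7.18. Like Pparg it passed the filter through the dermis alone. The markers of endothelium and macrophages, cells known to carry Cd36, were lower in epidermis as well, at a median log2 fold change of -4.48 and -4.69, and their part in the levels of Cd36, Lpl and Gpihbp1 was not tested.

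Plin2, the perilipin of lipid droplets in most cell types, lies on chromosome 4 from 86648386 to 86670060. It stood at 95.9, 69.8 and 115 TPM in dermis and at 12.3, 8.10 and 14.9 TPM in epidermis. The groups did not overlap, the dermis mean was 7.93 times the epidermis mean, and the log2 fold change was -2.89 ± 0.29 (SE, 95% interval -3.57 to -2.22, limma adjusted p = 0.00021). Within the family this difference was not general: Plin3, the other widely used perilipin, stood at 82.8, 76.2 and 97.7 TPM in dermis and at 75.3, 42.8 and 71.0 TPM in epidermis and was not called (log2 fold change -0.47, 95% interval -1.09 to 0.15, limma adjusted p = 0.17), while Plin5 stayed at or below 0.53 TPM. The intervals of Plin2 and Plin3 did not overlap, but the difference between both genes was not tested.

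**Figure D3:**
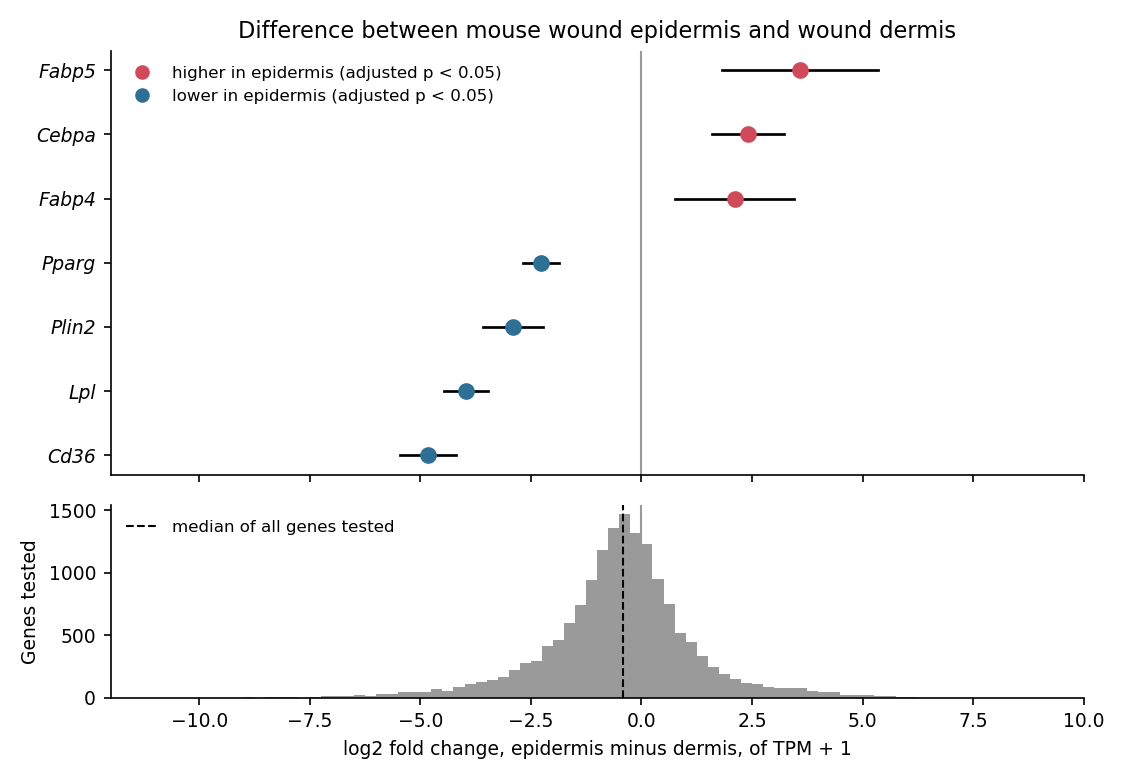
Log2 fold change, epidermis minus dermis, of the 7 genes that could be tested (upper panel, dots with 95% intervals from limma) above the distribution over all 15982 genes tested (lower panel, number of genes per bin, with their median of -0.42 as a dashed line). Fabp5, Cebpa and Fabp4 lie between 2.11 and 3.58, and Pparg, Plin2, Lpl and Cd36 lie between -4.82 and -2.27.

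In order of mean TPM, which corrects for transcript length, the epidermis held Fabp5 (3648), Fabp4 (262), Cebpa (117), Plin2 (11.8), Lpl (2.64), Plin1 (0.37), Cd36 (0.21), Adipoq (0.060), Pparg (0.033) and Plin4 (0.0033). The libraries of Fabp4 and Cebpa overlapped there, and below Lpl no neighbours in this order were separate. The order in dermis was Fabp5 (446), Plin2 (93.4), Lpl (56.4), Fabp4 (47.0), Cd36 (33.1), Cebpa (22.8), Pparg (4.0), Plin1 (0.43), Plin4 (0.017) and Adipoq, listed at 0. From Fabp5 to Cebpa each neighbour overlapped the next, except Plin2 and Lpl, whose nearest libraries stood at 69.8 and 68.4 TPM. Pparg was separate from both its neighbours.

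The wider set of lipid genes was followed along the path of a fatty acid. The counts of each list in the main fit stand against the 17.0% of all genes tested that were called higher and the 39.3% called lower. Median-of-ratios scaling and quantile normalization, the other scalings, moved the median of all genes from -0.42 to -0.03 and 0.08. With them 4342 and 4694 of the 15982 genes were called higher, from 2721 in the main fit, and 4850 and 4191 lower, from 6275. The list counts under these scalings stand against those numbers. Of 17 genes of fatty acid uptake and activation 12 were tested, with 3 higher and 7 lower in epidermis and a median log2 fold change of -1.50. Under quantile normalization 4 were higher and 6 lower, with a median of -0.78. Cd36 and Angptl4 had passed the filter through the dermis alone. The 3 higher ones activate or import fatty acids: Slc27a4, the fatty acid transporter of skin, at 2.79, and the acyl-CoA synthetases Acsl1 at 3.14 and Acsl5 at 1.61. The related synthetases Acsl4 and Acsl3 were lower, at -2.38 and -1.28, the latter without a call under quantile normalization (-0.54, adjusted p = 0.063). Slc27a4 stood at 83.3, 98.4 and 68.3 TPM in epidermis and at 9.10, 17.7 and 8.26 TPM in dermis, so the transporter and Cd36 differed in opposite directions.

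Of 10 genes of triglyceride synthesis 8 were tested, with 2 higher and 3 lower and a median of 0.11. Under the other scalings 4 were higher, with medians of 0.55 and 0.39. Dgat2, which adds the last fatty acid to a triglyceride, stood at 343, 300 and 255 TPM in epidermis and at 4.96, 64.1 and 4.24 TPM in dermis replicates 1 to 3, highest in replicate 2 with its keratinocyte RNA (log2 fold change 4.56, limma adjusted p = 0.0046). The acyltransferase Agpat3 was higher as well (1.75), while the phosphatidate phosphatases Lpin2 (-1.69), Lpin1 (-1.35) and the acyltransferase Agpat2, at 4.29 to 6.72 TPM in epidermis and 12.6 to 17.1 TPM in dermis, were lower. Lpin1, which had passed the filter through the dermis alone, lost its call under quantile normalization (-0.55, adjusted p = 0.076). Dgat1, the other enzyme of the last step, was not called, at -0.58 (95% interval -1.47 to 0.32).

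All 6 lipolysis genes were tested, with 3 higher (50%) and 2 lower (33.3%), against 17.0% and 39.3% over all genes. Abhd5, which activates the triglyceride lipase of droplets, was higher at 2.62, with Lipe at 1.72 and Pnpla3 at 3.67, while Mgll, the lipase of the last step, was lower at -2.38 and G0s2, an inhibitor of the triglyceride lipase that had passed the filter through the dermis alone, at -2.61. Pnpla2, that lipase itself, was not called, at -0.41 (95% interval -0.95 to 0.14), and its sign changed under both other scalings. Among 12 droplet proteins 6 were tested, with 3 higher and 1 lower and a median of 0.64, which was 1.07 and 1.01 under the other scalings. Cidea, known from brown fat and sebaceous cells, stood at 11.8, 22.2 and 7.25 TPM in epidermis and at no more than 0.39 TPM in dermis, so that it passed the filter through the epidermis alone. Bscl2 (1.38) and Fitm2 (1.24), which help droplets to form, were higher, and Plin2 was the lower one.

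The last groups make and burn fatty acids. Of 8 synthesis genes 4 were higher and 1 lower, with a median of 0.76. Under the other scalings 5 were higher, with medians of 1.14 and 1.29. The higher genes were Elovl6 at 1.65, Acly at 1.36, Fasn at 1.19 and Scd1 at 1.15; the lower one, Acacb, which had passed the filter through the dermis alone, at -0.79, stood at 0.079 under quantile normalization (adjusted p = 0.76). Of 12 oxidation genes 9 were tested, with 6 higher, 0 lower and a median of 0.71. With median-of-ratios scaling 8 were higher and the median was 1.16, and with quantile normalization 7 were higher and it was 1.03. The higher genes included the mitochondrial enzymes Acadm at 1.49, Hadhb at 1.00 and Hadha at 0.87. Cpt1a, the entry step of the mitochondrial pathway, was not called, at -0.15 (95% interval -0.60 to 0.30), and its sign changed under both other scalings.

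Of 18 PPAR target genes, which include 7 of the 10 genes described here, 10 were tested, with 3 higher and 4 lower and a median of -0.20, which was 0.24 and 0.27 under the other scalings. The share of lower genes was near that over all genes. Fabp4 and Acsl1 were among the higher ones, and the lower ones were Cd36, Lpl, Plin2 and Angptl4. Of 10 adipocyte progenitor genes 9 were tested, with 1 higher and 6 lower, against 17.0% and 39.3% over all genes. Of the lower ones Pdgfra, Pdgfrb and Dlk1 had passed the filter through the dermis alone, so that they could only be called lower. Cd34 (-5.38), Pdgfra (-4.58), Pdgfrb (-4.49) and Dlk1 (-2.77), which also mark other mesenchymal or vessel cells, were lower in epidermis, and Cd24a, which keratinocytes also carry, was higher (3.68). In the mature adipocyte list the called genes beside Fabp4, Lpl and Lipe were Thrsp, a factor of lipid synthesis, lower at -2.34 and tested through the dermis alone, and Retn, the hormone resistin, higher at 0.73 with 1.24 to 1.98 TPM in epidermis and 0.33 to 0.74 TPM in dermis. Retn passed the filter through the epidermis alone. It missed the threshold without dermis replicate 2 or 3 (adjusted p = 0.082 and 0.081) and, with the tested genes held fixed, without epidermis replicate 1 (adjusted p = 0.072).

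**Figure D4:**
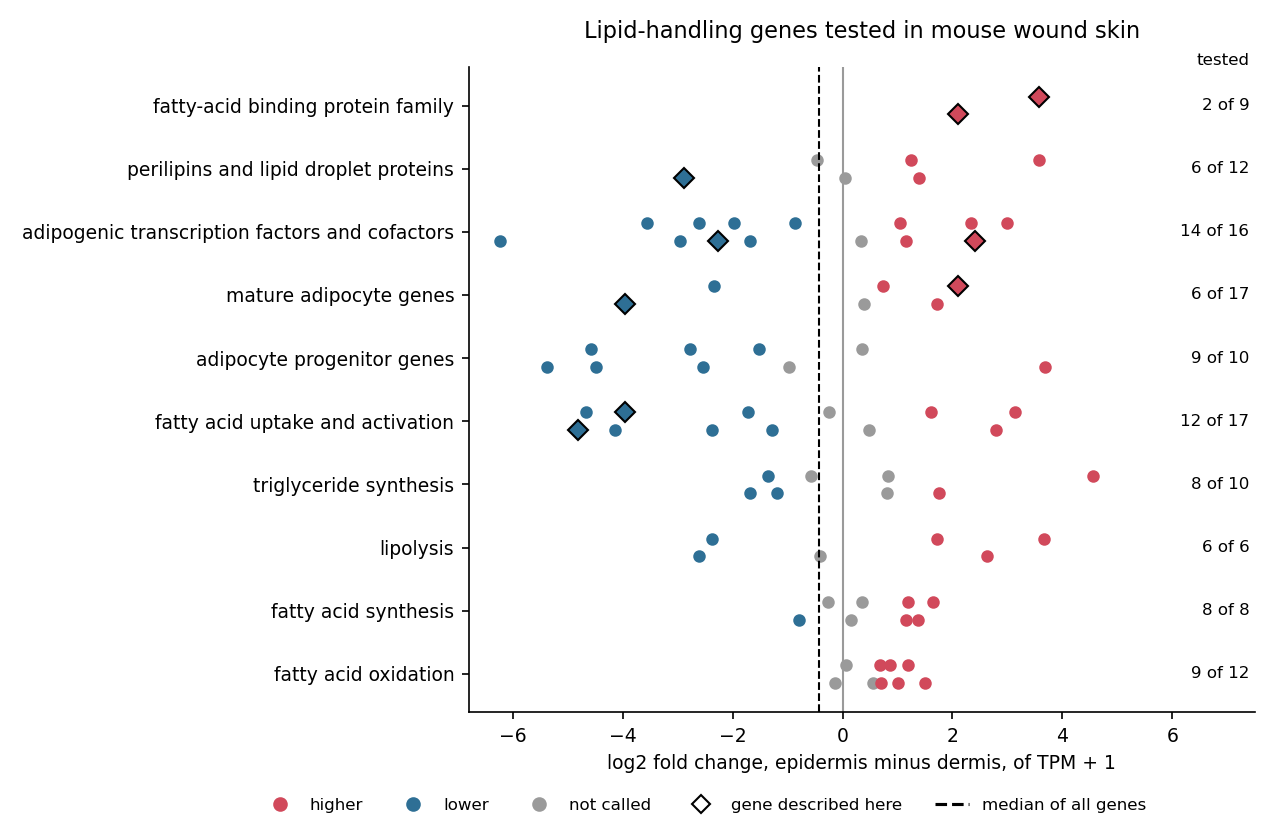
Log2 fold change, epidermis minus dermis, of the tested genes of 10 lipid-related lists, 1 point per gene and coloured by the limma call at an adjusted p of 0.05; diamonds with a black edge are genes described in full, the dashed line is the median of all genes tested, and the numbers at the right give how many genes of a list were tested. Uptake genes, progenitor genes and transcription factors reach far to the left, some of them tested through the dermis alone so that they could only be called lower. No gene was called lower in fatty acid oxidation or among the 2 tested fatty-acid binding protein genes.

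Markers of further cells that could carry such genes were also measured. Of 8 sebocyte markers 3 were tested, with 2 called higher in epidermis and 1 lower, against 17.0% and 39.3% of all genes tested. The 2 higher ones, Cidea among them, had passed the filter through the epidermis alone and could only be called higher. The lower one was Soat1 (-3.61). Among the untested markers Mc5r did not exceed 0.08 TPM and Scd3 0.41 TPM, and Elovl3 reached 2.34 TPM in dermis replicate 1. Awat1 stood at 0.31 to 0.72 TPM in epidermis and at most 0.05 TPM in dermis. The summed sebocyte list was 17.8 to 31.4 TPM in epidermis, where Cidea and Soat1 supplied most of it, and 66.6 to 104 TPM in dermis, where Soat1, which many cells use, supplied 64.3 to 100 TPM. Of 8 skeletal muscle markers, for the muscle sheet below mouse skin, 3 were tested, and their sums overlapped, at 31.9 to 45.1 TPM in epidermis and 23.4 to 54.3 TPM in dermis. Of these Mylpf, higher in epidermis at 36.3, 31.7 and 44.8 TPM, supplied most of the epidermis sum. The other tested markers were lower in epidermis and had passed the filter through the dermis alone: the troponin Tnnt3 (-3.18), listed at 0 in all 3 epidermis libraries, and the filament protein Des, at 5.87 to 8.30 TPM in dermis and at most 0.05 TPM in epidermis. The actin Acta1 reached 15.8 TPM in dermis replicate 3 and at most 0.54 TPM elsewhere, and the muscle creatine kinase Ckm did not exceed 1.2 TPM in any library.

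The genes most like Fabp5 over the 6 libraries, by Pearson correlation of log2(TPM + 1) among genes with a mean of at least 10 TPM, were Dsc1 (r = 0.9992), Crabp2 (0.9990), Pinlyp (0.9987), Fam83h (0.9984) and Myo5b (0.9982). Dsc1, a cadherin of desmosomes in the upper epidermis, shared the high value in dermis replicate 2, at 9.96 TPM against 3.31 and 0.37 TPM. The genes most like Fabp4 were Sec63 (0.993), Rnf10 (0.987), Tnk2 (0.982), Rab9 (0.981) and the pseudogene Rpl10-ps3 (0.980), which were all highest in epidermis replicate 2. Sec63 stood at 41.2, 54.2 and 36.7 TPM in epidermis and at 32.8, 27.9 and 28.7 TPM in dermis, a much smaller range than that of Fabp4. Over 6 libraries in 2 tissues such correlations are set largely by the tissue difference and by single libraries.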

How the data were processed

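The deposited values are TPM, which the authors computed per gene and library. Bowtie 1.0.0, RSEM 1.2.31 and the build mm10 are named per the submitters' processing notes, and neither settings nor annotation are stated. TPM keeps no depth, so no counting interval is given, and as a share of the library it shifts when abundant genes differ between tissues. The labels' protocols name 2 amounts of starting RNA and 2 read lengths without tying them to libraries. All 6 mouse columns matched a labelled sample. Symbols and coordinates (mm10, 1-based) came from GENCODE M21 by Ensembl identifier, with 49289 of 49548 rows paired.

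The fit used limma 3.58.1 (R 4.3.3) with a mean-variance trend on log2(TPM + 1), for genes that reached 1 TPM in 3 or more libraries, 3 libraries against 3, without a block. Alternatives were a pseudocount of 0.1, no filter, a filter of 5 TPM, median-of-ratios scaling, quantile normalization, no trend, a replicate block and each library left out. The genes and the 18 lists were chosen with earlier results of these data known. Named genes were the 10 genes, up to 4 others per list and direction by adjusted p, list members at 0, and the 5 most correlated genes for Fabp4 and Fabp5; others, such as Dgat1, Pnpla2, Plin3, Cpt1a and Pmp2, were added after their values were seen, to complete a family or step. A gene of these lists that the rule would name is not reported here; the list counts and medians include it.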

Additional observations from a re-analysis of the deposited data

How the results depend on the processing

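Under 19 alternatives, all 7 tested genes kept their direction wherever they could be tested. The call of Fabp4 was lost without wound dermis replicate 3. Among all genes 8996 were called, and 5288 to 8546 with each library left out in turn, or 7415 to 8714 with the tested genes held fixed. Of the 7 tested genes 3 were called higher and 4 lower, against 17.0% and 39.3% of all genes tested. Pparg and Cd36, 2 of the 4 lower genes, had passed the filter through the dermis alone and could only be called lower. With a library left out 2 to 4 were called lower, since Pparg and Cd36 fail the filter of 3 libraries when a dermis library is left out. In the fixed set, a setting added after the data were seen, Pparg stood at -2.36 to -2.22 and Cd36 at -5.02 to -4.65. Across all alternatives Fabp4 ranged from 1.42 to 2.60, Fabp5 from 2.75 to 4.40, Cebpa from 2.09 to 2.86, Lpl from -4.36 to -3.47 and Plin2 from -3.09 to -2.44. Reversed were Acacb under quantile normalization (0.079) and, neither of them called in any scaling, Pnpla2 and Cpt1a under median-of-ratios scaling (0.016 and 0.29) and quantile normalization (0.21 and 0.38). Lpin1 lost its call under quantile normalization (-0.55, adjusted p = 0.076). These scalings put the median of all genes at -0.03 and 0.08, from -0.42. With the replicate number as a block 8404 genes were called, 2464 of them higher and 5940 lower in epidermis. Of the 7 tested genes 3 were higher and 4 lower as before. Pairing was looked at in the deviations of each library from its tissue mean, gene by gene. These deviations correlated at -0.14 to 0.19 across genes between same-numbered libraries. By these deviations 1 of 3 epidermis libraries and 2 of 3 dermis libraries correlated best with their own number. Deviations of 3 libraries from their own mean are not independent, and the numbers were not taken as pairs. Depth is unknown, so values near 0 cannot be told from 0.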

Other observations

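Within the 3 wound epidermis libraries Fabp4 had the same order as Cidea and as the keratinocyte differentiation markers Krt10 and Ivl. Replicate 2 was highest for all 4 genes, with 528 TPM of Fabp4, 22.2 TPM of Cidea, 35714 TPM of Krt10 and 1184 TPM of Ivl, and replicate 3 was lowest, with 102, 7.25, 12226 and 407 TPM in the same order of genes. Of the other keratinocyte markers Krt1, Lor, Flg, Dsg1a and Sbsn had this order too, while Dsc1 was lowest in replicate 1. The other tested sebocyte markers, Soat1 and Awat2, were highest in replicate 3, at 8.98 and 1.18 TPM. The basal keratins Krt14 and Krt5 had the opposite order, with Krt14 at 5551 TPM in replicate 2 and 14970 TPM in replicate 3. The order of Fabp4 over 3 libraries was noticed in the data and was not tested, and the share of all genes that have it was not counted.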
